A study of Homo sapiens with 1 sample.

Results

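The miRNAs described here are those of the imprinted DLK1-DIO3 domain on chromosome 14, the long cluster of hairpins that lies between the genes DLK1 and DIO3. They were taken by name, as the human miRNAs whose numbers belong to the hairpins of the domain, with every letter, copy and arm that the array carries. This gave 92 miRNAs from 52 hairpins, of 2549 miRNAs on the array. They were read in DLD-1, an established colorectal carcinoma cell line, after transfection with negative control siRNA (si-NC, n = 1 array). The study set this control beside cells depleted of circLONP2, a circular RNA from the LONP2 gene, and the depleted cells were not analysed here. So no groups were compared and no p-value was computed. Each error below is technical, either the error that the scanner software gives or the SD over replicate spots of a probe.

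In the DLK1-DIO3 domain one parental chromosome expresses protein-coding genes and the other expresses noncoding RNAs. DLK1, RTL1 and DIO3 are expressed from the paternal chromosome. The long noncoding RNAs MEG3 and MEG8, a set of small nucleolar RNAs and the miRNA hairpins are expressed from the maternal chromosome, where the hairpins are thought to be cut from long shared transcripts. Expression of these miRNAs is best known in embryo, placenta, brain and muscle.

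By RefSeq positions on GRCh38.p14, the hairpins ran from MIR770 (chr14:100852390-100852487) to MIR656 (chr14:101066724-101066801), and every mature sequence placed there was on the plus strand. MIR770 lay within MEG3. The next group, from MIR493 to MIR370, included 5 hairpins within the span of RTL1, which is read from the other strand, and MIR370 within MEG8. The last and longest group ran from MIR379 to MIR656 and included 6 hairpins within the noncoding gene MIR381HG.

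A mature sequence was found in RefSeq for 91 of the 92 miRNAs, and the exception was miR-668-3p. The first sequences shown are those of the 6 members with the highest signal, given 5′ to 3′ with positions on GRCh38.p14. Capitals mark the seed, bases 2 to 8, by which a miRNA mainly recognises its targets.
miR-494-3p, chr14:101029681-101029702: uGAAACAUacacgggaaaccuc
miR-487b-3p, chr14:101046505-101046526: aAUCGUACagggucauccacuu
miR-431-3p, chr14:100881069-100881090: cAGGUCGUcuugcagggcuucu
miR-770-5p, chr14:100852409-100852431: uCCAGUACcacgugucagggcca
miR-370-3p, chr14:100911186-100911207: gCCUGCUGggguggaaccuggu
miR-409-3p, chr14:101065346-101065367: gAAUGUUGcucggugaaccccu

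The next sequences belong to members that differ by few bases or share a seed, since probes for such miRNAs can be hard to tell apart.
miR-487a-3p, chr14:101052494-101052515: aAUCAUACagggacauccaguu
miR-154-3p, chr14:101059805-101059826: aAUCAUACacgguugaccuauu
miR-1185-1-3p, chr14:101043029-101043050: aUAUACAGggggagacucuuau
miR-1185-2-3p, chr14:101044250-101044271: aUAUACAGggggagacucucau
miR-300, chr14:101041414-101041435: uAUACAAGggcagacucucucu
miR-381-3p, chr14:101045968-101045989: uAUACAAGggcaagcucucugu

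The first question was how much of the cluster gave a signal in these cells. The scanner software called 21 of the 92 members detected, which is 22.8%, and left 71 undetected. Over all miRNAs of the array the same call was made for 44.4%. The software calls a miRNA detected when at least 1 of its probes has a signal of 3 or more times its error. The total gene signal, which sums the signal of the probes that pass, had a median of 6.92 over the detected members with quartiles of 5.03 and 16.9. Over all detected miRNAs of the array the median was 12.5. A signal depends on the probe as well as on the amount of RNA, so signals of different miRNAs are given here as signals and not as abundance.

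Detected members were scattered along the locus. Of the 52 hairpins, 19 had at least 1 detected arm (36.5%) and 33 had none. The like share over all hairpins of the array was not computed, for this or the hairpin counts below. A hairpin counts with either arm, so its share cannot be set beside that of single miRNAs. Both arms were detected for 2 hairpins, MIR494 and MIR134, and a single arm for the other 17. Of these 17, MIR770, MIR665 and MIR300 had only 1 miRNA on the array, so no second arm could be called. The longest run of adjacent hairpins with a detected arm held 5, from MIR300 to MIR487B, and runs of 5 without any lay from MIR1193 to MIR376A2 and from MIR323B to MIR541. The last 4 hairpins of the locus, MIR412, MIR369, MIR410 and MIR656, had no detected arm. Mature names that 2 hairpins share, such as miR-329-3p, were counted for both.

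**Figure D1:**
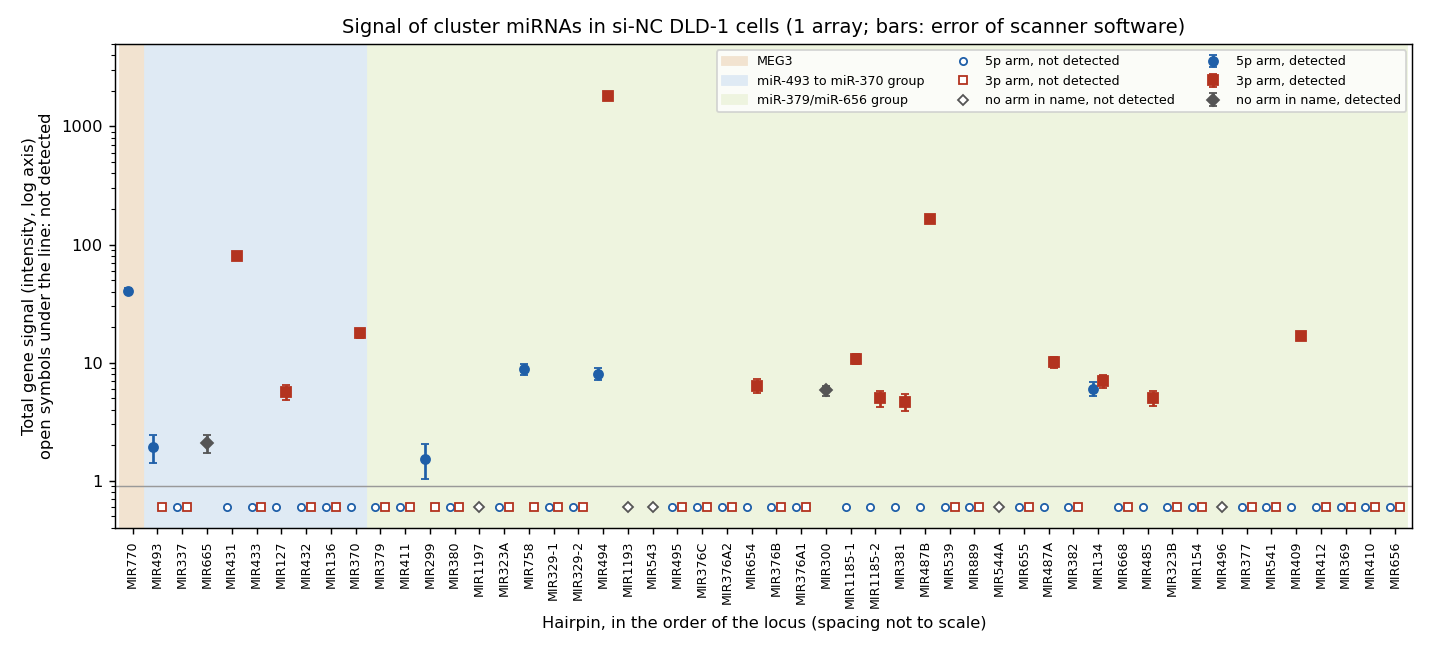
The total gene signal (intensity, log axis) of each cluster miRNA in the si-NC array is plotted against its hairpin in the order of the locus, with filled symbols for detected miRNAs, bars for the error from the scanner software and open symbols under the line for miRNAs not detected. In the groups from MIR493 and from MIR379 on, detected and undetected members are interspersed, and miR-494-3p has the highest signal at 1829.7.

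The hairpin at the MEG3 end gave a clear signal. miR-770-5p, the arm of MIR770 measured here, had a total gene signal of 40.8 ± 2.15 (error from the scanner software), and all 20 of its spots were well above background. Its 4 probes had means of 121 ± 3.38, 69.4 ± 3.86, 116 ± 7.38 and 139.9 ± 12.5 (SD, 5 spots each). Of the negative control spots 99% lay under 16.1, so every probe of miR-770-5p was brighter than these.

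In the group from miR-493 to miR-370, 5 of 17 members were detected (29.4%), beside 44.4% over the array. This group holds the miRNAs that lie opposite RTL1, a retrotransposon-derived gene of the placenta, and that are fully complementary to its transcript. Among them, miR-431-3p had a total gene signal of 79.5 ± 4.03 with all 20 spots well above background, between 158 and 254. Its 5p arm was not detected, with a median spot of 2.02 and 0 of 20 spots well above background.

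miR-127-3p, the member best known for cutting the RTL1 transcript, was detected at 5.64 ± 0.788. Of its 20 spots 16 were well above background. The median over all 20 was 14.96, far above the negative control median of 0.0894 but under the 99th percentile of negative controls, 16.1. Both arms of miR-433, miR-432 and miR-136, the other hairpins opposite RTL1, were undetected. Of these, miR-432-5p was the closest undetected member to the limit, with a probe signal 2.99 times its error. So of 5 hairpins within the span of RTL1, 2 had a detected arm.

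miR-370-3p, known for an effect on fatty acid oxidation in liver, lay within MEG8 and had a signal of 17.7 ± 1.43. Its 20 spots were all well above background, from 32.5 to 62.9. The remaining detected members of the group were at the limit of detection. miR-493-5p had a signal of 1.93 ± 0.516, and 2 of its 20 spots stood clear of background. miR-665 had 2.08 ± 0.370, with 3 such spots. For miR-493-5p 1 of 2 probes passed the limit on signal over error, and for miR-665 2 of 4 did.

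In the long group from miR-379 to miR-656, 15 of 74 members were detected (20.3%), beside 44.4% over the array. They covered the whole range of signals in the cluster. miR-494-3p had a total gene signal of 1829.7 ± 131, and its 20 spots ranged from 3822 to 6461. Relative to the 75th percentile of spots of detected miRNAs, it lay at 5.12 ± 0.12 on the log2 scale (SD of 20 spots about the mean of their own probe), and its 2 probes differed by 0.37 on that scale. Its signal was higher than that of 95.9% of the detected miRNAs of the array. The 5p arm of the same hairpin, miR-494-5p, was detected at 8.05 ± 0.896, also with 20 of 20 spots well above background.

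The neighbours of MIR494 gave no such signal. On one side lay MIR329-2, whose arms miR-329-3p and miR-329-5p had median spots of -0.697 and -1.70. On the other lay MIR1193, whose miRNA had a median spot of -1.72 with 1 of 20 spots well above background. These hairpins, like MIR494, fall in a stretch of 13 hairpins within a single predicted RefSeq gene, LOC124903407, of which 3 had a detected arm, MIR299, MIR758 and MIR494.

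miR-487b-3p was the other member with a signal above 100. Its total gene signal was 165 ± 12.5, with spots between 224 and 697, all 20 well above background. The probes differed, with means of 616 ± 74.9 and 284 ± 32.3 (SD, 10 spots each), which is 1.12 on the log2 scale. Its 5p arm was not detected, with a median spot of -1.07. MIR487B lies in MIR381HG together with MIR381, MIR539, MIR889, MIR544A and MIR655, and of these 6 hairpins MIR381 was the only other one with a detected arm. miR-381-3p had a signal of 4.65 ± 0.754, and 9 of its 20 spots passed the background flag.

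A middle range followed, in which every spot was still well above background. miR-409-3p had a signal of 16.9 ± 1.38, miR-1185-1-3p had 10.7 ± 1.02, miR-487a-3p had 10.1 ± 0.988 and miR-758-5p had 8.80 ± 0.922. Their lowest spots were 29.9, 20.7, 21.5 and 18.1, each higher than 99% of the negative control spots.

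The other detected members lay close to background. miR-134-5p, a regulator of dendritic spine size in neurons, had a signal of 6.004 ± 0.800, and 19 of its 20 spots passed the background flag. The other arm, miR-134-3p, had 6.92 ± 0.856 with 16 of 20. miR-654-3p had 6.35 ± 0.845 with 8 of 20, and its probes had means of 24.3 ± 8.71 and 10.4 ± 1.79 (SD, 10 spots each).

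Signals of miR-300, miR-485-3p and miR-1185-2-3p were 5.81 ± 0.563, 5.03 ± 0.770 and 5.01 ± 0.765. Of their 20 spots each, 13, 11 and 12 passed the background flag. miR-299-5p was the weakest detected member, at 1.53 ± 0.502, with 0 of 20 spots well above background and 1 of 2 probes past the limit. From 6.92 for miR-134-3p down to 4.65 for miR-381-3p, neighbours in the order of signal differed by less than their errors.

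**Figure D2:**
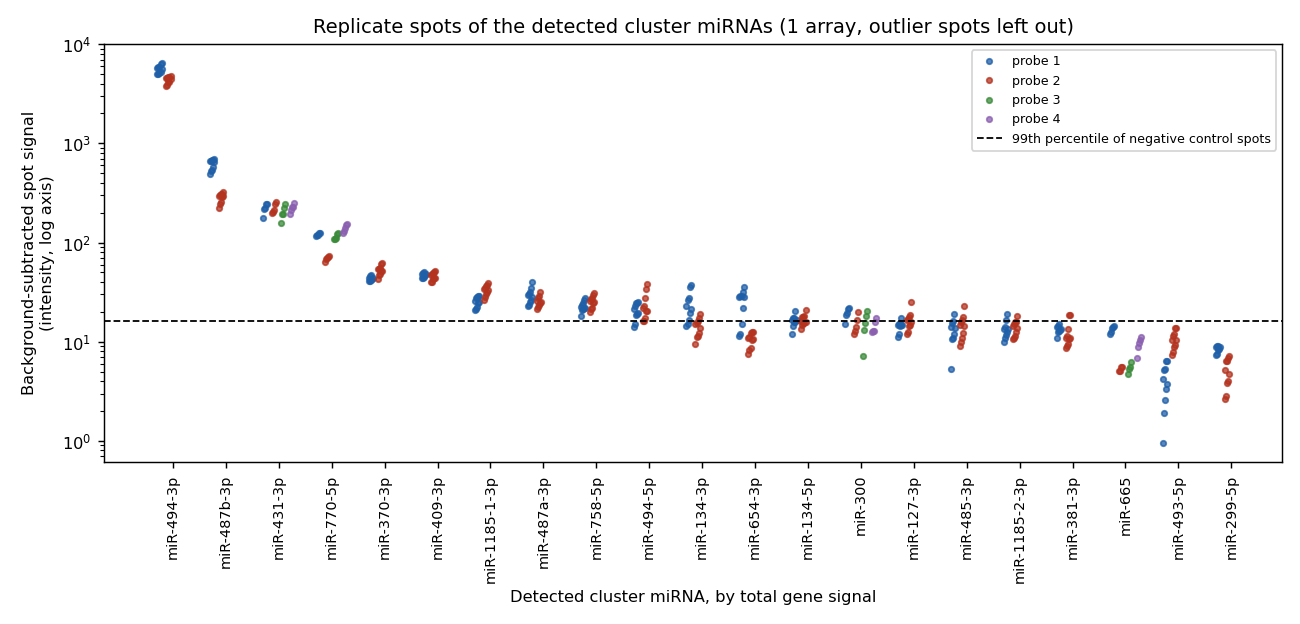
Background-subtracted signals of single spots (intensity, log axis) are plotted for the 21 detected cluster miRNAs in the order of total gene signal, coloured by probe, with outlier spots left out and the 99th percentile of negative control spots (16.1) as a dashed line. From miR-494-3p to miR-758-5p all spots lie above the line, and from miR-494-5p on some or all spots of each miRNA lie under it.

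Over the detected members, 10 had every spot well above background and 11 did not. For 12 of the 21 the median spot was brighter than 99% of the negative controls. In 4 members, miR-381-3p, miR-665, miR-493-5p and miR-299-5p, the total gene signal was under 5. Replicate spots of a probe had a median coefficient of variation of 12.6%, over the 40 member probes for which at least 50% of spots passed the background flag. From the dimmest to the brightest probe of a detected member the median log2 difference was 0.28. The largest such difference was 1.40 for miR-493-5p, whose probe means of 10.5 and 4.004 were both under the negative control percentile.

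The 71 undetected members were also read spot by spot. The background flag of a spot can be stricter than the call, since miR-299-5p was called detected with 0 of 20 such spots. So a count of flagged spots could miss a weak signal. With outlier spots kept, 1.48% of their 1420 spots were well above background, beside 1.40% of the 1000 negative control spots. No spot was well above background in 50 of these members, and exactly 1 was in the other 21. Of these 21 all but miR-544a had at least 1 outlier spot, so the 1.48% rests largely on outlier spots. The median spot of an undetected member ran from -2.93 to 6.75 with a median of -1.35, where negative controls had a median of 0.0894.

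The members with such a spot and the highest ratio of probe signal to error were miR-379-5p, miR-543, miR-376c-3p, miR-668-3p and miR-495-3p. Their single high spots were 138, 15.6, 55.7, 62.3 and 22.4, while their median spots lay at 4.10, 3.87, 2.82, 0.816 and 0.834. Their ratios of 1.73, 1.49, 1.26, 0.907 and 0.757 stayed well under the limit of 3. An undetected miRNA on this 1 array had no probe with a signal of 3 times its error, which is not the same as no signal or no RNA. miR-432-5p, undetected with 0 of 20 spots well above background, had a median spot of 6.75, beside 6.90 for the detected miR-493-5p.

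The arms differed in how often they were called. Of the 3p arms 13 of 42 were detected (31.0%), of the 5p arms 6 of 43 (13.95%), and of the members named without an arm 2 of 7. Among early-numbered miRNAs, described next, the shares were 60.3% of 290 for 3p and 66.9% of 284 for 5p. No test was made of this difference, since arms of a hairpin share their source.

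Most members were annotated early, when strongly expressed miRNAs were found first, so a closer background than the whole array was used as well. It consisted of let-7 and the miRNAs numbered up to 1000 outside the cluster and outside the primate cluster on chromosome 19, 738 in all. Of these 58.4% were called detected, with a median signal of 24.4 over the detected ones. A signal of 100 or more was reached by 133 of them (18.0%), and by 2 members of the DLK1-DIO3 cluster (2.17%).

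The chromosome 19 cluster, the other long imprinted cluster of human miRNAs, is expressed from the paternal chromosome in placenta. It had 7 of 47 miRNAs detected (14.9%), with a highest signal of 7.88. Well above background were 17.1% of member spots in the DLK1-DIO3 cluster, 5.50% in the chromosome 19 cluster, 46.6% in the early-numbered miRNAs and 34.0% over the array. These shares describe 1 array, and no test was made of the differences.

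**Figure D3:**
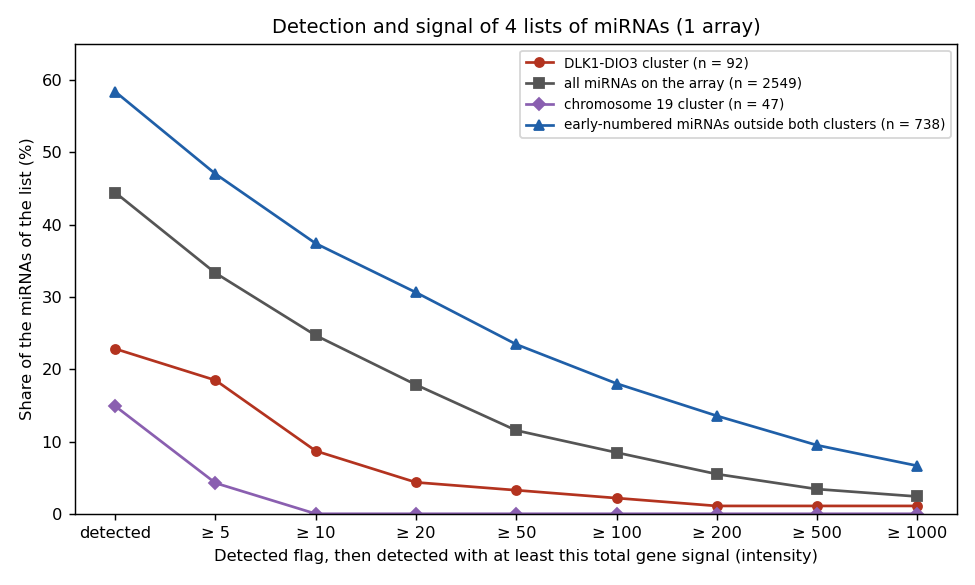
The share of miRNAs (%) that were detected, and that were detected with at least the total gene signal given on the x axis (intensity), is plotted for the DLK1-DIO3 cluster, all miRNAs of the array, the chromosome 19 cluster and the early-numbered miRNAs. The DLK1-DIO3 cluster falls from 22.8% detected to 8.70% at a signal of 10 or more and stays between the chromosome 19 cluster and the whole array at every step.

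The order of the 4 lists was the same under each other way of calling detection. Where at least 50% of the spots of 1 probe had to be well above background, 19 members passed (20.7%), beside 37.9% of all miRNAs. Where the median spot had to be brighter than 99% of negative controls, 12 passed (13.0%), beside 31.2%. With the detected flag and a signal of 5 or more, 17 passed (18.5%), beside 33.3%. With the detected flag and at least 50% of the spots of every probe well above background, 15 passed (16.3%), beside 29.4%. The rules on signal and on every probe require the flag by definition. All members that passed the rules on the spots of 1 probe and on the median spot also carried it.

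**Figure D4:**
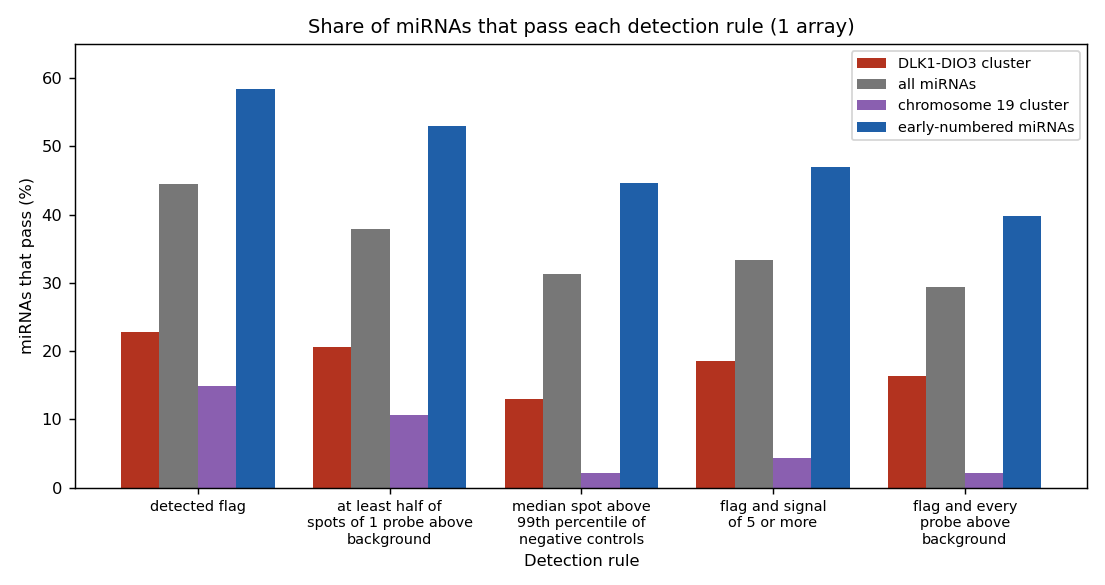
Bars starting at 0 give the share of miRNAs (%) in each list that pass 5 detection rules on the si-NC array. The DLK1-DIO3 cluster passes at 13.0% to 22.8%, under the whole array and above the chromosome 19 cluster for each rule.

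A pair of other miRNA loci in the domain, which the choice of members left out, were read for comparison. miR-2392, whose hairpin lies between the RefSeq spans of DLK1 and MEG3, was detected at 12.8 ± 1.18 with 20 of 20 spots well above background. At the other end, next to DIO3, miR-1247-5p was detected at 9.59 ± 1.01 and miR-1247-3p at 6.01 ± 0.802, and of their 20 spots each 17 and 16 passed the background flag. All 3 mature miRNAs of these loci were thus detected, beside 44.4% over the array, at signals in the range of the middle and weak members of the cluster. Their GC contents were 60.0% for miR-2392, 72.7% for miR-1247-5p and 70.8% for miR-1247-3p, beside a median of 45.5% in the cluster. The part of GC content in their detection was not tested.

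Base composition was compared because it can change how a probe binds. The GC content of detected members had a median of 47.8% (36.4% to 70.0%) and that of undetected members a median of 45.5% (23.8% to 72.7%), over the 91 with a sequence. At a GC content of 50% or more 10 of 37 members were detected (27.0%), and under it 11 of 54 (20.4%). Over the array the shares were 50.4% and 35.1%, and over the early-numbered miRNAs 61.1% and 56.4%. In both GC classes the share of the cluster lay under those of the array and of the early-numbered miRNAs.

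The 91 sequences held 80 different seeds. Only 10 seeds were shared by 2 or more members, 21 members in all, of which 7 were detected. The share detected was 22.8% over the cluster and 44.4% over the array. miR-300 and miR-381-3p, which share a seed, were both detected, and so were miR-1185-1-3p and miR-1185-2-3p. miR-487a-3p was detected while miR-154-3p, with the same seed, was not. In all, 3 detected members shared a seed with an undetected member.

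The near-identical members can be read against the sequences shown above, with positions counted from the 5′ end. miR-487b-3p and miR-487a-3p were identical at 19 of 22 bases and differed by G5A, U13A and C20G, the first of them in the seed. miR-1185-1-3p and miR-1185-2-3p differed by U20C alone. miR-300 and miR-381-3p differed by G13A, A14G and C21G. How far the probes of these pairs bind the other miRNA was not tested.

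Each member was also set against the brighter detected miRNAs outside the cluster, as far as these had a RefSeq sequence, and the others were not compared. For miR-494-3p the longest run of bases shared with any of the 41 brighter miRNAs with a sequence was 5 of its 22 bases, and for miR-487b-3p it was 8 of 22 among 132. Over the detected members the longest shared run had a median of 8 bases (5 to 11), and over the undetected members, set against the 971 detected miRNAs outside the cluster with a sequence, also 8 (7 to 10). The longest, of 11 bases, were those of miR-134-5p with miR-6728-5p and of miR-665 with miR-423-3p. A longer list gives more room for a long run, so runs against lists of unequal length are not directly comparable. These runs describe sequence, and binding was not tested.

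The cells were checked by miRNA markers of tissues. All 10 markers listed for colon epithelium were detected, with signals from 52.2 to 9249. They include the intestinal miR-192-5p, but also miRNAs of epithelia in general, such as miR-200c-3p and miR-141-3p. Of 6 mesenchymal and endothelial markers 1 was detected, the endothelial miR-126-3p at 123 ± 8.75. The mesenchymal miR-143-3p, miR-145-5p, miR-199a-5p, miR-199a-3p and miR-214-3p were not. Of 4 neural markers 3 were detected, from 22.1 for miR-9-5p to 472 for miR-128-3p, and the defining miR-124-3p was not. None of 3 muscle markers was detected, and 3 of 4 blood markers were, from 21.5 for miR-451a to 695 for miR-142-3p. All these signals came from the cultured DLD-1 line, and their relation to the signals of the cluster was not tested.

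In the values that the authors deposited, the 21 detected members lay between 2.3236 and 10.6 on a log2 scale. The 4 members with a total gene signal under 5 shared the lowest of these values, so that table keeps no order among them. miR-494-3p stood at 10.6, miR-487b-3p at 7.42, miR-431-3p at 6.38 and miR-770-5p at 5.41. The 71 undetected members had the floor of the table, 2.3219, which is the log2 of 5.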

How the data were processed

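MiRNAs were measured in 1 sample on 1 single-colour Agilent array. Per the file headers, Feature Extraction 11.0.1.1 gave the intensity of an array designed on hg19, and the deposited intensity of each spot is background-subtracted and not normalized between arrays. The labels describe labelling with Cyanine 3-pCp, the methods of the study a cDNA kit. The authors also deposited log2 values, quantile normalized in GeneSpring, whose floor was found from the values.

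The flags and total gene signals of the software were used as they stand. For each miRNA the median, range and count of spots are over all its spots. Means and SDs of probes, log2 signals and the spot shares of the lists leave out outlier spots (4.40% of member spots). The spot shares of undetected members, of negative controls and in the detection rules keep them. Undetected miRNAs carry a placeholder of 0.1. Normexp (offset 50), on the median spot signal, ran in limma 3.58.1 under R 4.3.3. All else ran in Python 3.11.15 (pandas 2.3.3, numpy 2.4.6, matplotlib 3.10.9, scipy 1.17.1). The coefficient of variation between spots was tested on simulated bright spots only, all set as well above background, so dim probes were not covered. Sequences and the order of hairpins came from RefSeq (GRCh38.p14), for 2248 of the 2549 array miRNAs (88.2%). Named were all detected members, the 5 undetected ones with the highest ratio of probe signal to error among the 21 that had 1 spot well above background, and 2 neighbouring loci. miR-432-5p and the neighbours and other arms of named members were added after their values were seen. The members and lists were chosen with earlier results of these data known. The single array limits the precision.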

Additional observations from a re-analysis of the deposited data

How the results depend on the processing

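Over 10 results 42 alternative values were computed, of which 26 stayed within the limits set for a change and 16 moved. Where the median spot had to exceed the 99th percentile of negative control spots, detected members fell from 21 to 12, hairpins with a detected arm from 19 to 10, the miR-493 to miR-370 group from 5 to 2, the miR-379 to miR-656 group from 15 to 9 and the chromosome 19 cluster from 7 to 1. With a signal of 5 or more the miR-493 to miR-370 group held 3 and the chromosome 19 cluster 2. With at least 50% of the spots of every probe well above background they held 3 and 1. The members that passed the rules on the spots of 1 probe and on the median spot were all among the 21. The rules on signal and on every probe require the flag by definition. The deposited floor gives the counts of the detected flag by construction.

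The median total gene signal of detected members, 6.92, moved to 8.80 over those at 5 or more and to 8.05 over those in which 1 probe had 50% or more of its spots past the background flag, since both leave out dim members. The median log2 signal relative to the 75th percentile, -3.02, became -0.58 when spots of every miRNA set the percentile, where the reference signal fell from 143 to 26.3, -1.41 under normexp, which adds its offset to all signals, and to -2.58 over members at 5 or more. The median coefficient of variation, 12.6%, moved to 4.90% with normexp and to 32.3% once dim probes were kept. No paired analysis was possible because there is 1 sample. Signal over background limits the dim members, whose errors reached 32.7% of the signal.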
